A study of Homo sapiens with 24 samples.

Results

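This section describes the m6A map of HepG2 cells that carry an EGFP cassette, as the transcripts that held many, few or no sites. Summits from the 3 immunoprecipitated libraries of this line were merged wherever neighbouring summits lay within 100 nt of each other, and a region was kept where 3 of 3 libraries had a summit. This left 7151 regions out of 22577 in the line and out of 34313 when the 12 immunoprecipitated libraries of the whole series were merged in the same way. The series has 24 samples, 12 immunoprecipitated and 12 input, from 4 HepG2 lines. HepG2 cells are a long-established line from a human liver cancer. The EGFP line was made by integrating a lentiviral cassette for EGFP, a fluorescent protein with no known part in RNA methylation, followed by selection with puromycin at 3 µg/ml for 8 days. It received no METTL14 construct, which the other 3 lines carry. The labels do not say whether the line is a clone or whether its 3 biological replicates came from separate transductions. Poly(A) RNA was broken to about 120 nt and precipitated with an antibody against m6A.

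N6-methyladenosine (m6A) is the most common internal modification of mRNA. It is placed by a nuclear complex built on METTL3 and METTL14 at adenosines in a short consensus, of which GGACT is the best known form, and it is read by YTH domain proteins, which among other roles speed the decay of methylated mRNA. In mammalian cells it is known to gather near stop codons, in 3′ untranslated regions and in long internal exons. Transcripts of regulatory genes often carry it, and those of many housekeeping genes do not.

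The sequence under a region could be read only where it fell in the RefSeq window from 250 bases before to 50 bases after an annotated start (GRCh38.p14). Of the regions placed in a gene, 44 had 25 bases on either side of their middle inside such a window. GGAC was present on the gene's strand in 17 of these 44 (38.6%) and on the other strand in 4 (9.09%), against 17.0% of the central 51 bases of 35116 windows. GGACT, which contains GGAC, was present on the gene's strand in 6 (13.6%) and on the other strand in 0, against 4.36% of windows. The 6 stretches with GGACT are given because they show the best known form of the consensus beside a region; capitals mark GGACT, each run reads 5′ to 3′ on the gene's strand, and a run is shorter where the window ended.
HS2ST1, chr1:86914725-86914749, plus strand: cgggggtcggGGACTgaggcagtag
LRP3, chr19:33194315-33194339, plus strand: ccgggcgggaGGACTgacagaccca
OTUD5, chrX:48957832-48957848, minus strand: ctGGACTtggagagaag
RASA1, chr5:87268694-87268718, plus strand: ggggggagctGGACTgacaggggga
TATDN2, chr3:10280812-10280826, plus strand: GGACTgccgagcata
TLNRD1, chr15:81001920-81001942, plus strand: agcagaagGGACTttcctggcag
The A of GGACT lay 7 bases downstream of the region's middle in HS2ST1, a heparan sulfate sulfotransferase. In LRP3 it lay at -9 bases from the middle, in RASA1, a GTPase activating protein of RAS, at -12, in TLNRD1 at -15, in OTUD5, a deubiquitinase, at -21 and in TATDN2 at -23. For HS2ST1, TATDN2 and TLNRD1 the window read was that of another gene's start: SELENOF, GHRLOS and LOC128071545. These windows cover the starts of genes only, where few regions lay, so they do not describe the motif content of the map.

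The 3 libraries gave 15373, 13859 and 12665 summits (mean 13966 ± 1357, SD, n = 3). Of each list, 46.6%, 51.7% and 56.5% of summits fell in a region shared by 3 of 3. Sharing followed the authors' summit value within each list. It was 82.1% ± 4.93 (SD, n = 3) for the best 25% of summits, 59.2% ± 6.18 for the next 25%, 39.8% ± 6.30 for those after and 25.2% ± 2.96 for the last 25%. Of all regions, 10438 (46.2%) had a summit in 1 library, 4988 (22.1%) in 2 and 7151 (31.7%) in 3. The shared regions were narrow, with a median of 16 nt between the outermost summits (quartiles 8 and 31 nt), and 20 of them held more than 3 summits. How many reads each list rests on is unknown here.

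Replicate 2 stood apart from replicates 1 and 3 for transcripts known to be abundant in liver cells. APOB, the structural protein of VLDL and LDL, had 10 summits in replicate 1, 0 in replicate 2 and 32 in replicate 3. ALB, serum albumin, had 7, 0 and 10 summits in the same order, and AFP, the fetal serum protein of liver tumour cells, had 5, 0 and 8. TF, transferrin, had 15, 1 and 13, and ACTB, cytoplasmic actin, had 3, 0 and 3. In all 5, replicate 2 was below both others. The mitochondrial chromosome had 8, 0 and 16 summits.

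The difference covered whole gene classes. The 20 secreted liver proteins held 56 summits in replicate 1, 5 in replicate 2 and 70 in replicate 3, the 13 apolipoproteins 23, 6 and 49, and the 27 abundant housekeeping genes 27, 2 and 45. The 77 cytosolic ribosomal proteins held 39, 7 and 42. The liver transcription factors, with 66, 63 and 50 summits, and the m6A readers and erasers, with 23, 24 and 24, showed no such gap. In replicates 1 and 3 the summits of the abundant classes were of low value: of those in secreted liver proteins, 60.7% and 68.6% lay in the last 25% of their list, and of those in housekeeping genes 63.0% and 75.6%; for histone methyltransferases the values were 20.8% and 18.5%. The part of depth, input or peak calling in this difference was not tested. Values that rest on it are therefore given with and without replicate 2.

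**Figure D1:**
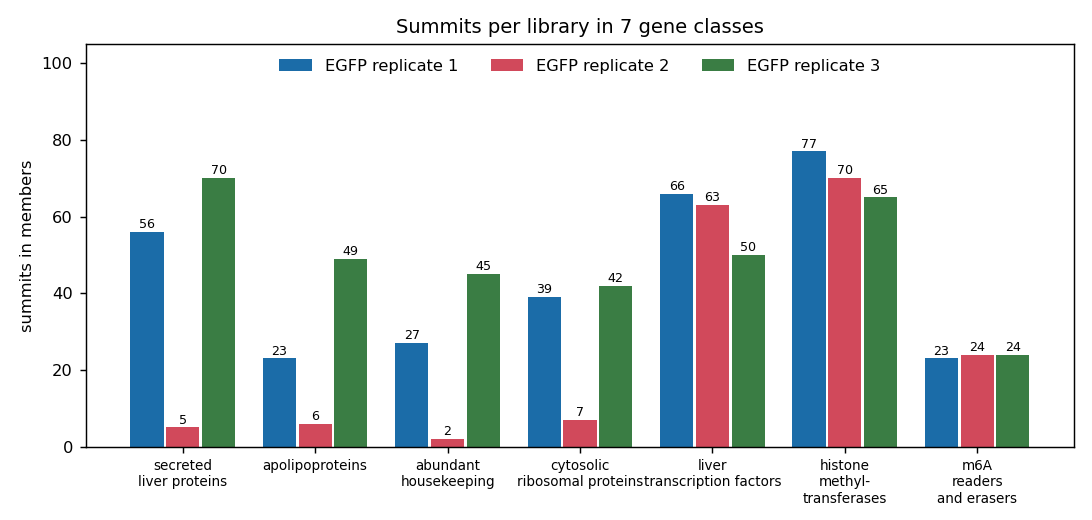
Summits assigned to members of 7 gene classes, as bars of counts for each of the 3 EGFP libraries. Replicate 2 has 2 to 7 summits in each of the 4 abundant classes, where replicates 1 and 3 have 23 to 70; the 3 classes on the right differ far less.

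The labelled cell type was checked with marker genes. Of 9 hepatocyte markers, 7 had a summit in replicate 1, 2 in replicate 2 and 8 in replicate 3, and TTR had none in any. A region in 3 of 3 was present in 1 of the 9, TF, and without replicate 2 a shared region was present in 7 of the 9. Among genes that mark other cells, a region was found in 0 of 9 fibroblast, 0 of 8 blood, 0 of 6 endothelial and 0 of 5 neuronal markers, and the defining markers COL1A1, PTPRC, PECAM1 and SYN1 had 0 summits in each library. PDGFRB had 1, 0 and 1 summits and LYZ 2, 0 and 2. Of the 5 neuronal markers, 1 had a summit, in replicate 1 only. Without replicate 2, 1 of the 9 fibroblast and 1 of the 8 blood markers held a region. In a list of m6A summits a transcript that is absent and a transcript that is present but not methylated look the same, and no level of expression was tied to this line here, so a gene without a region is only that.

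Of 20050 protein-coding genes, 3979 (19.8%) held at least 1 region in 3 of 3 libraries in their span alone. A further 3543 had a summit in some library but no shared region, which brings the genes with any summit to 7522 (37.5%), and 12528 genes (62.5%) had none. Single libraries placed summits in 6205, 5873 and 5645 genes. Of the 7151 regions, 6317 (88.3%) lay in the span of 1 protein-coding gene, 453 (6.33%) in overlapping spans, 198 (2.77%) in an lncRNA gene and 183 (2.56%) in none of these. Without replicate 2, regions shared by replicates 1 and 3 lay in 4566 genes (22.8%).

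Most methylated genes held few regions. A single region was found in 2530 genes (63.6% of those with any), 2 in 926 (23.3%), 3 or 4 in 440 (11.1%), 5 to 9 in 81 (2.04%) and 10 or more in 2. The 1449 genes with 2 or more held 59.9% of the regions placed in protein-coding genes. Genes with 5 or more numbered 83 (0.414% of all). That count rose to 149 without replicate 1, 141 without replicate 2 and 156 without replicate 3, where a region needed both other libraries. Neighbouring regions of a gene lay close together: over 2338 pairs the median distance was 749 nt (quartiles 372 and 6029), with 37.3% of pairs within 500 nt and 56.2% within 1000 nt.

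**Figure D2:**
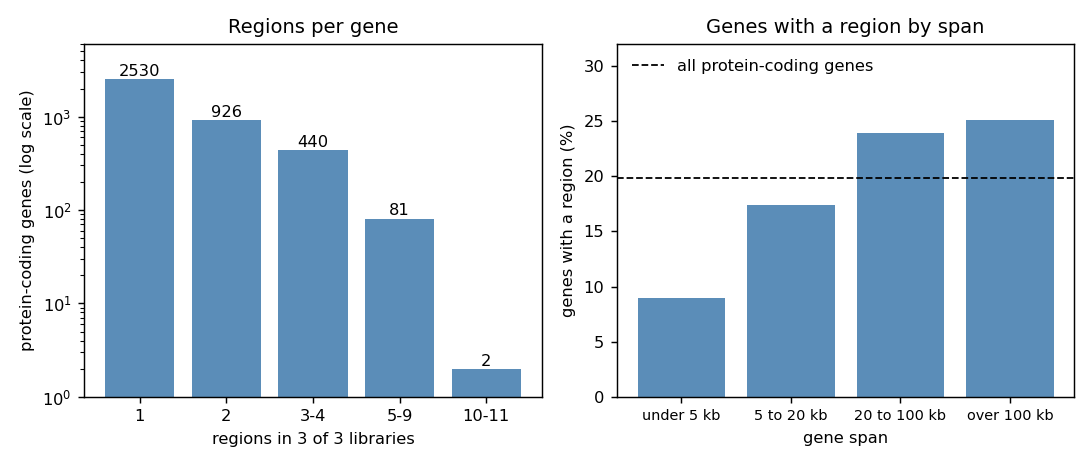
Left, number of protein-coding genes (log axis) by number of regions in 3 of 3 libraries; right, percent of genes with a region by length of the gene span, with the value over all genes as a dashed line. Counts drop from 2530 genes with 1 region to 2 genes with 10 or 11, and the percent of genes with a region is 8.97 under 5 kb and 25.1 over 100 kb.

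Length of the span moved with these counts. A region was present in 8.97% of 3210 genes under 5 kb, 17.4% of 5826 genes of 5 to 20 kb, 23.9% of 7658 genes of 20 to 100 kb and 25.1% of 3356 genes over 100 kb. The median span was 76.3 kb for genes with 5 or more regions, 35.9 kb for genes with any and 21.5 kb for genes with none. Among genes with a region, the mean number was 1.39 in the shortest class and 1.85 in the longest. Spans include introns, so they are not the length of the mRNA.

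ZFHX3, a homeobox and zinc finger transcription factor (chr16:72782885-73891930), held the most regions, 11, with 13, 18 and 19 summits in replicates 1, 2 and 3. Of these, 8 lay in the last 10% of its span of 1109 kb and the other 3 at 84.2% to 84.9% of it. MACF1, which links microtubules to actin (chr1:39084167-39487138), held 10 regions, with 11, 11 and 14 summits, between 75.3% and 99.7% of the span. For ZFHX3 replicate 1 was below both others, and for MACF1 replicate 3 was above both others.

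AHNAK, a giant scaffold protein (chr11:62433544-62546806), held 9 regions with 14, 16 and 14 summits. They lay between 11.4% and 25.4% of the span, far from its 3′ end. SON, a splicing factor of nuclear speckles (chr21:33543038-33577481), held 7 regions with 7, 8 and 8 summits, between 19.8% and 42.6%. Both genes thus held their regions in the first 5 of 10 equal parts of the span, in each library.

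ANKRD11, a chromatin regulator with ankyrin repeats (chr16:89267630-89490561), held 9 regions with 12, 12 and 11 summits, all in the last 10%. PIP5K1C, a lipid kinase that makes PI(4,5)P2 (chr19:3630183-3700468), held 7 regions and exactly 7 summits in each library, and its regions spanned 2144 nt at 96.2% to 99.3% of the gene. KMT2D, a histone H3 lysine methyltransferase (chr12:49018978-49060794), held 8 regions with 13, 13 and 12 summits spread from 22.1% to 94.3%. FAT1, an atypical cadherin, held 8 regions with 11, 14 and 17 summits, also spread, from 12.7% to 99.4%. These genes show a tight cluster at the end in some and a spread over most of the span in others.

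EP300, a histone acetyltransferase (chr22:41092592-41180077), held 7 regions with 9, 8 and 9 summits. The first lay 66 nt after the start of the span and 5 lay in the last 10%. MKI67, the Ki-67 protein of dividing cells, held 7 regions with 9, 10 and 10 summits at 61.2% to 94.5%. C15orf39 held 8 regions with 8, 9 and 10 summits in a span of only 13.3 kb. Among the other genes of the leading 20, DIDO1, FBXO31, an F-box protein, RGS3, a regulator of G protein signalling, TMCC1, ZKSCAN1, ARHGAP35, a GTPase activating protein, and PRAG1 each held 7 regions, and ARID1A, a subunit of SWI/SNF, held 6, as did several genes outside the 20, since ties were broken by symbol. TUG1, a long RNA that RefSeq lists among protein-coding genes, held 7 with 9, 10 and 9 summits.

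**Figure D3:**
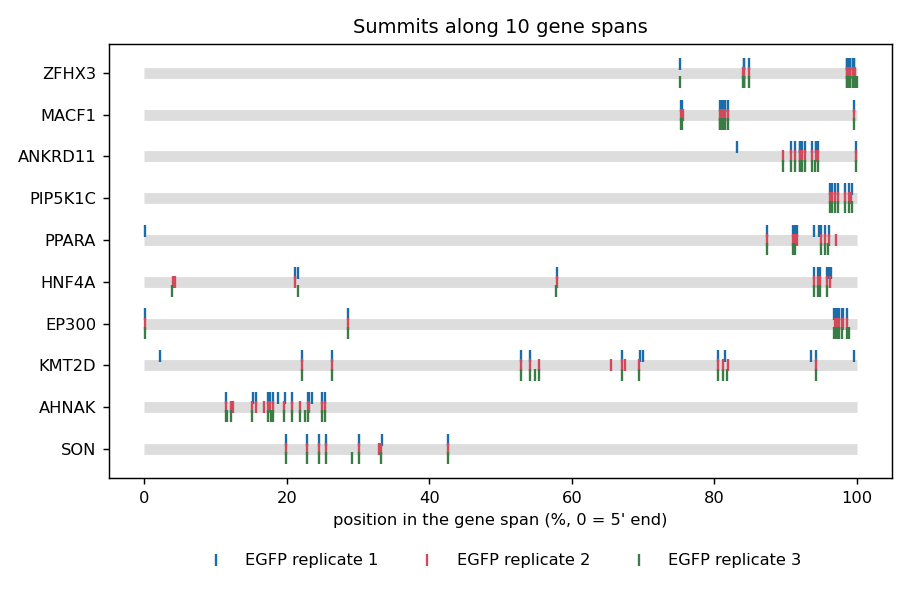
Position of every summit, as percent of the gene span from its 5′ end, in 10 genes; each tick is a summit and the 3 colours are the EGFP libraries. In PIP5K1C the ticks of the 3 libraries stack at 96.2% to 99.3%; in AHNAK the 9 shared regions lie at 11.4% to 25.4%, with further ticks of single libraries among them.

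Genes with short spans could also hold several regions. RNF26, a ubiquitin ligase of the endoplasmic reticulum (chr11:119334527-119337309), held 5 regions with 6, 5 and 6 summits in 2.78 kb. HPS6, needed for lysosome-related organelles, held 4 with 7, 5 and 4 summits in 2.69 kb. CHPF, which polymerises chondroitin, held 4 with 4, 4 and 5 summits, IRF2BPL held 4 with 5 summits in each library, KBTBD7, an adaptor of a cullin ligase, held 4 with 4, 5 and 5, and CCDC71 held 4 with 4 in each. B3GALT6, CENPB, a centromere protein, and DOLK, dolichol kinase, each held 3. At the other end, the 10 longest spans without a region were RBFOX1, CNTNAP2, PTPRD, DMD, DLG2, CSMD1, MACROD2, EYS, LRP1B and CTNNA3, of 2474 to 1851 kb. Of these, PTPRD had 1 summit in replicate 3 and EYS 1 in replicate 1, and the rest had 0 in each library. DMD and CNTNAP2 are best known from muscle and brain.

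By the assignment used, few long noncoding genes held a region: 135 of 18303 (0.738%), of which 42 held 2 or more. A region went to an lncRNA gene only where no protein-coding span held it. Genes for lncRNA that lie inside protein-coding spans could therefore not be counted, so the share is a lower bound. TGILR (chr6:3905141-3912002) led with 6 regions and 9, 7 and 7 summits, followed by LINC00205 with 5 and 6, 8 and 8 summits. LINC01605 held 4 with 7, 6 and 4 summits and LOC105377294 held 4 with 7, 6 and 5. CCDC144NL-AS1, CNN3-DT, CTBP1-DT, FTX, LINC00261, whose gene neighbours FOXA2, and LOC107987209 each held 3. Among 13 nuclear and imprinted long RNAs chosen by name, 3 held a region: TUG1, NORAD with 2 and 3, 2 and 2 summits, and NEAT1, the scaffold of paraspeckles, with 2 and 6, 3 and 2 summits. DANCR, GAS5, H19 and HULC had 0 summits in each library. Without replicate 1 the count was 5 of 13.

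Regions gathered at the 3′ end of the gene span. Each span was cut into 10 equal parts. Of 5294 regions in 3325 genes of known strand, 44.9% lay in the last 10% of the span, 13.4% in the part before it and 8.88% in the part before that, and the first 10% held 7.44%. The 6 parts between held 3.17% to 6.37% each. For all summits of a library the last 10% held 39.1%, 39.8% and 41.2% (mean 40.0% ± 1.09, SD, n = 3), and the first 10% 11.8%, 10.6% and 9.37% (10.6% ± 1.23). The 3 libraries thus differed by far less than these parts of the span did. Shared regions lay in the last 10% more often, and in the first 10% less often, than the summits of any single list. Cut into 3 groups by mean rank, the 1756 best regions of known strand had 48.8% in the last 10% and 4.27% in the first, and the 1767 of lowest rank had 42.2% and 10.8%.

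**Figure D4:**
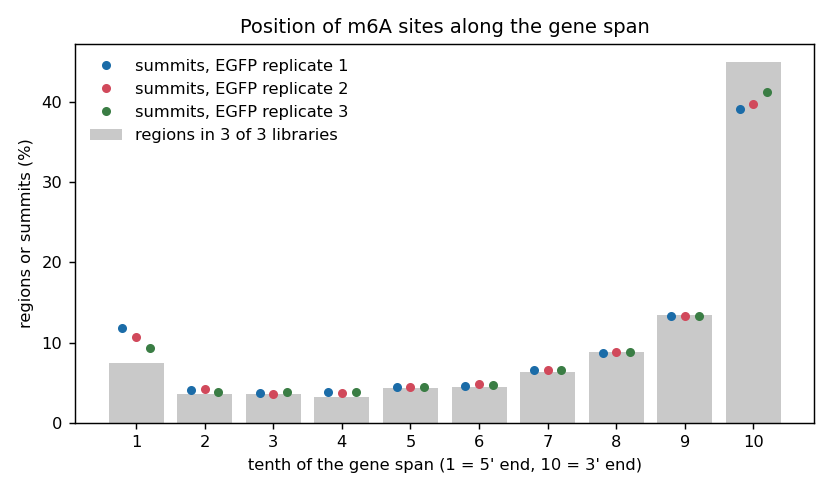
Percent of regions in 3 of 3 libraries (bars) and of all summits of each EGFP library (points) in each 10% of the gene span, from the 5′ end to the 3′ end. The last 10% holds 44.9% of regions, and the 3 libraries lie at 39.1% to 41.2% there.

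The share in the last 10% rose with the length of the span, while the share in the 5 parts nearest the 3′ end stayed level. The last 10% held 16.7% of regions in spans under 5 kb, 28.4% at 5 to 20 kb, 50.5% at 20 to 100 kb and 56.8% over 100 kb; these 5 parts held 74.1%, 78.1%, 78.0% and 78.9%. The median distance to the 3′ end of the span was 931 nt, 2278 nt, 4258.5 nt and 9499 nt in these classes, and 3713.5 nt in all. Within 500 nt of that end lay 9.35% of regions and within 1000 nt 17.6%. Genes with 1 region had 48.6% of them in the last 10% and genes with 5 or more had 43.3%. Of 1222 genes of known strand with 2 or more regions, 327 (26.8%) had all of them in the last 10% and 83 had at least 1 in the first and 1 in the last. Spans do not tell exons, introns, coding and untranslated parts apart.

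The regions with the best mean rank were near the 3′ end too. The leading region lay in TSC1, an inhibitor of mTORC1 signalling (chr9:132896256-132896266), at rank 19, 18 and 4 in the 3 lists, 90.9% along the span and 4912 nt from its end. GPC1, a heparan sulfate proteoglycan, followed (chr2:240466322-240466326) at rank 15, 11 and 17 and 94.6% of the span. BTBD7 (chr14:93242474-93242491) had ranks 18, 38 and 11 at 94.8%. PLEKHG2, a guanine nucleotide exchange factor (chr19:39425352-39425354), had ranks 7, 63 and 44 at 80.5%. The next 6 were in MAML2, a coactivator of Notch, SERHL2, CDK13, a kinase of RNA polymerase II, ZNF274, IL6R, the receptor of interleukin 6, and TASOR, a subunit of the HUSH silencing complex, at 94.1% to 99.4%. All but PLEKHG2 lay in the last 10%. Single lists could part widely: IL6R had ranks 159, 56 and 3, and MAML2 had ranks 154, 23 and 5 for 1 position, chr11:95978864.

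Regions just after a transcript start were a small part of all. Of regions of known strand, 62 (1.17%) lay within 100 nt of the span's start and 36 (0.680%) within 100 nt of its end. Within 500 nt the order turned, with 2.64% at the start and 9.35% at the end. Among all summits of a library the mean was 2.91% ± 0.443 (SD, n = 3) within 100 nt of the start. It was 0.853% ± 0.158 within 100 nt of the end. The antibody also binds the methylated adenosine next to the cap, so the first bases were examined apart. Within 100 nt after an annotated start lay 101 regions, 1.41% of all, at a median of 65 nt, and 87 of them lay 40 to 100 nt after it. The annotated first base was A in 45 of these (44.6%), against 44.4% of 35116 windows. Examples are EP300 at 66 nt, where the first base is G, DUSP10 at 45 nt, where it is A, and ATP5MC1, a subunit of ATP synthase, at 61 nt, also A; these examples were chosen after their values were seen. Of 1562 miRNA hairpins, 4 had a region within 100 nt and 0 had one inside: MIR922 in RUBCN, MIR639, MIR1281 in EP300 and MIR1184-1.

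Gene classes differed widely in how many members held a region. Of 41 classes, chosen with earlier results of these data known, 22 were above the 19.8% of all protein-coding genes. With other settings, 18 to 28 classes were above the value over all genes in that setting. The richest was that of the histone methyltransferases, with 14 of 17 members (82.4%), 39 regions and a median of 2 per member, where the median over all genes was 0. After KMT2D, KMT2C held 4 regions with 12, 7 and 7 summits, SETD1B 4 with 8, 8 and 4, and SETD2, which methylates lysine 36 of histone H3, 4 with 7, 4 and 5. EZH2, the enzyme of Polycomb complex PRC2, with 1, 0 and 0 summits, EHMT2 with 2, 1 and 0, and NSD1 with 0 in each held none. The members' median span was 90.3 kb, against 24.1 kb for all genes; of all genes over 100 kb, 25.1% held a region.

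Of 9 histone acetyltransferases, 5 held a region (55.6%). EP300 had 7, its paralogue CREBBP 4 with 4, 4 and 7 summits, KAT6A 3, KAT6B 2 and KAT2A 1, and KAT2B, KAT5, KAT7 and KAT8 had none. Of 32 remodellers of the CHD, SMARC and ARID families, 14 did (43.8%), led by ARID1A with 6, ARID1B with 6 and 8, 9 and 9 summits, CHD7 with 5 and ARID2 with 4.

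The genes of the m6A pathway itself were among the rich classes. Of the 8 genes of the writer complex, 5 held a region (62.5%). RBM15, which recruits the complex to RNA, held 4 with 4 summits in each library, all at 13.5% to 36.9% of the span. ZC3H13, a scaffold, held 3 with 7, 5 and 3, RBM15B 2 with 2, 5 and 2, CBLL1 1 and VIRMA 1 with 4, 3 and 2. The catalytic METTL3 had 1, 0 and 1 summits and its partner METTL14 1, 1 and 1, but neither had a shared region. WTAP, the regulatory subunit, had none assigned because its span overlaps that of SOD2; 3 regions lay in the span of WTAP.

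Of the 10 readers and erasers, 8 held a region (80.0%), 18 in all. The 3 cytoplasmic YTH readers led: YTHDF1 held 4 with 5 summits in each library, YTHDF3 4 with 6 in each and YTHDF2 3 with 3 in each. YTHDC1, the nuclear reader, held 2 with 2, 2 and 4, YTHDC2 1, IGF2BP2 2 with 2 in each and IGF2BP3 1. FTO, a demethylase, held 1, while ALKBH5, the other demethylase, and IGF2BP1 had 1 summit each, in replicate 2. Counts for the YTHDF genes were the same in all 3 libraries.

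Transcription factors of the liver were rich as well. Of 20, 14 held a region (70.0%), 32 in all, and 17 of 23 regions of known strand lay in the last 10%. PPARA, the fatty acid sensor, held 6 with 10, 8 and 6 summits, 5 of them in the last 10%. HNF4A, a master regulator of hepatocytes, held 5 with 9, 9 and 7 summits, 4 of them in the last 10% and 1 at 57.8%. A region lay 76 nt after an annotated start of HNF4A, where the first base is A. None of the 5 regions lay in the first 10% of the span, so this start lies inside it. FOXA3 and GATA4 held 3 each, with 4, 4 and 3 and 3, 4 and 3 summits. CEBPB with 4, 1 and 4 summits, NR1H4, the bile acid receptor, with 0, 1 and 2, and HNF4G with 0 held none. Without replicate 2, the count was 16 of 20.

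The signalling classes stood above the background too. Of 8 SOCS genes, which inhibit cytokine receptors, 6 held a region (75.0%). SOCS5 held 2 with 3, 3 and 4 summits, SOCS7 2 with 3, 2 and 2, and CISH, SOCS3, SOCS4 and SOCS6 held 1 each. SOCS1 had 1, 3 and 1 summits and SOCS2 0, 1 and 0, with no shared region. Of 19 immediate early genes, 10 did (52.6%), among them EGR1 with 2 and 4, 2 and 2 summits, JUN with 2 and 3, 4 and 3, IER2 with 2 and IER3 with 2. ATF3 with 0, 2 and 0 and BTG2 with 2, 2 and 0 summits fell short in at least 1 library, and EGR2 and EGR3 had 0 in each. Of 30 DUSP, SPRY and SPRED genes, brakes on MAP kinase signalling, 12 did (40.0%), led by SPRY4 with 4 and 4, 7 and 7 summits and DUSP16 with 3 and 4, 6 and 6.

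The large zinc finger family was rich on chromosome 19, where its gene clusters lie, and elsewhere. There were 93 of 240 genes with a region on chromosome 19 (38.8%) and 100 of 237 on the other chromosomes (42.2%). ZNF69 led on chromosome 19 with 4 regions and 10, 5 and 8 summits, followed by genes with 3 each, among them ZNF121, ZNF564 and ZNF627. Elsewhere ZNF445 held 5 with 6, 7 and 6 summits, ZNF517 5 with 8, 8 and 7, ZNF148 4, all in the last 10%, and ZNF281 4 at 18.7% to 57.2%. These genes are near-identical in part, and how reads that map to several of them were treated is unknown here. Of 18 KLF factors, 8 held a region (44.4%), with 2 each in KLF9, KLF10, KLF11, KLF13 and KLF15. Of 19 SOX factors 7 did (36.8%), led by SOX4 with 3 and 6, 5 and 8 summits. Ubiquitin-specific proteases stood at 25 of 50 (50.0%), with USP31 at 4 regions and 5, 7 and 8 summits.

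**Figure D5:**
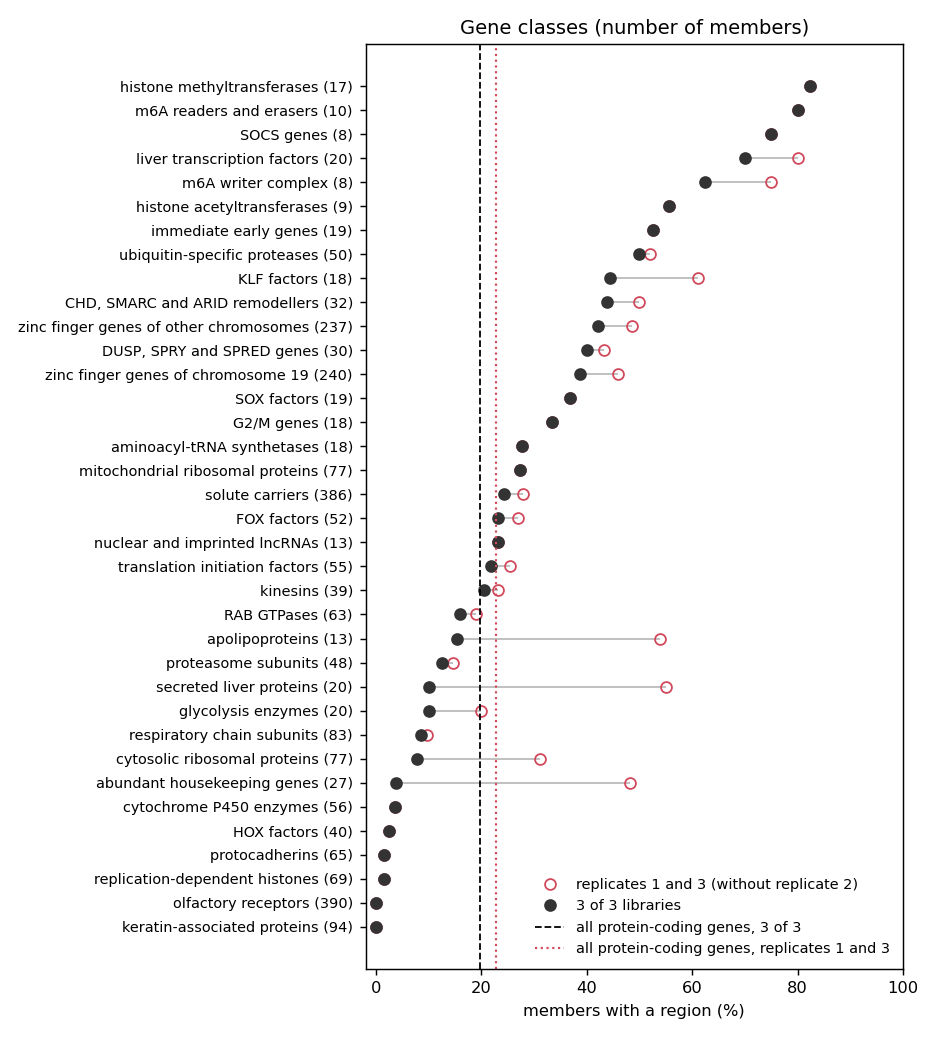
Percent of members with a region for 36 gene classes, with the number of members in brackets; filled points need 3 of 3 libraries, open points replicates 1 and 3, and the dashed and dotted lines are the values over all protein-coding genes for filled (19.8%) and open points (22.8%). Apolipoproteins, secreted liver proteins, abundant housekeeping genes and cytosolic ribosomal proteins have filled points left of the dashed line and open points right of the dotted line.

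Several classes lay near the background. Solute carriers stood at 94 of 386 (24.4%), FOX factors at 12 of 52 (23.1%), translation initiation factors at 12 of 55 (21.8%) and kinesins at 8 of 39 (20.5%). The initiation factors were counted by EIF symbols, so the class includes kinases such as EIF2AK3. Within these 4 classes single genes were rich: FOXO1, a target of insulin signalling, held 5 regions with 5 summits in each library, all in the last 10%, FOXK2 4, EIF3A 4 with 6, 6 and 5, and KIF3B 3. RAB GTPases were at 10 of 63 (15.9%), and at 16 of 63 without replicate 1, while RAB17 held 5 with 7, 8 and 7 summits. Above the background, G2/M genes stood at 6 of 18 (33.3%), where MKI67 accounted for 7 of 12 regions; ASPM, AURKA and CENPF held 1 each, and BUB1, BUB1B and CCNB1 had 0 summits in each library.

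Some classes were poor with and without replicate 2. Respiratory chain subunits had 7 of 83 members with a region (8.43%), among them SDHA of complex II at 90.2% of its span, and ATP5MC1 and NDUFB8 at 1.98% and 1.68% of theirs. Without replicate 2 the count was 8. Mitochondrial ribosomal proteins, whose products serve the same organelle, stood at 21 of 77 (27.3%), with 2 regions each in MRPL34, MRPS12 and MRPS2 and 2 summits per library in all 3. With summit values of at least 10 they fell to 11 of 77 (14.3%), below the 15.9% of all genes in that setting. Respiratory chain subunits then had 3 of 83. Proteasome subunits had 6 of 48 (12.5%; 7 without replicate 2), led by PSMB7 with 3 and 6, 6 and 3 summits. Cytochrome P450 enzymes, which oxidise drugs and steroids, had 2 of 56 (3.57%), CYP4F3 and CYP4V2; the count was 2 without replicate 2, 5 without replicate 1 and 4 without replicate 3. Replication-dependent histones, whose mRNAs mostly lack a poly(A) tail, had 1 of 69 (1.45%), H2BC21, and HOX factors 1 of 40 (2.50%), HOXA3 with 3, 2 and 2 summits. Without replicate 3 both classes had 2 members with a region, and without replicate 1 the histones had 2. The median span was 0.494 kb for these histones, 3.79 kb for HOX factors and 8.92 kb for respiratory chain subunits. It was 8.62 kb for mitochondrial ribosomal proteins, 13.6 kb for proteasome subunits and 21.9 kb for P450 enzymes, against 24.1 kb for all genes. Of all genes under 5 kb, 8.97% held a region.

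Classes expressed in other tissues were at or near 0 where a region had to lie in the span of 1 gene alone. Olfactory receptors had a region in 0 of 390 genes (1 without replicate 1) and keratin-associated proteins in 0 of 94. Protocadherins had 1 of 65, PCDHB2, and 2 of 65 without replicate 3. Their clustered genes share spans, however: 12 of 65 (18.5%) had a region when each gene whose span held it was counted. Counted in that way, 22.4% of all protein-coding genes had a region.

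The remaining poor classes moved with replicate 2. Abundant housekeeping genes had a region in 1 of 27 (3.70%), PTMA, and in 13 of 27 (48.1%) when replicate 2 was left out. ACTB gained 3 regions that way, whereas EEF1A1 had 0 summits in each library and ACTG1 and CFL1 had 1 each, in replicate 3. Cytosolic ribosomal proteins had 6 of 77 (7.79%), among them RPL13, RPL29, RPL36 and RPL4, each with 1 summit per library, and 24 of 77 (31.2%) without replicate 2. Secreted liver proteins went from 2 of 20 (10.0%), HP and TF, to 11 of 20 (55.0%). TF then held 13 regions, C3 8, ALB 7, AFP 5, AMBP and SERPINA1 4 each and AHSG 3. Apolipoproteins went from 2 of 13 (15.4%), APOA5 with 2 regions and APOF with 1, to 7 of 13 (53.8%; 4 without replicate 3), with 9 regions in APOB and 1 each in APOA1 and APOA2. Glycolysis enzymes went from 2 of 20 (10.0%), HK2 and ENO2, to 4 of 20; ALDOA and ALDOC had 0 summits in each library and ENO1 had 5, 0 and 3. Of these 5 classes, the first 4 passed the 22.8% of all genes that held a region without replicate 2, and the glycolysis enzymes, at 20.0%, did not. In the order given, the median spans of the 5 classes were 4.97, 5.01, 11.8, 3.26 and 20.9 kb.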

How the data were processed

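m6A summits of the 3 EGFP libraries were analysed. The authors deposited 1 list of summits per library on hg38, with a −log10 p or q value for each summit (which of them is unknown). The submitters' processing notes name MACS2 2.1.2 and STAR 2.7.9a, among other tools; settings, input library and depth: not given in the sources used here. Values ranked or filtered summits within a list only. Summits were merged in Python 3.11.15 with pandas 2.3.3, tested on simulated data. A region was assigned to the only RefSeq (GRCh38.p14) protein-coding span holding its middle, or else the only lncRNA span. Strand came from RefSeq promoter windows. With 1 group, no test was made.

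Named genes were the 20 protein-coding and 10 lncRNA genes with most regions, the 10 best-ranked regions, the 10 leading short genes, the 10 longest without a region, and in each class up to 4 with most regions and up to 4 with none (all members in classes of 12 or fewer). Members and lists were chosen with earlier results of these data known. The split by abundant classes was chosen after the data were seen. The 18 per-library columns of the deposited expression table carry codes no label ties to a sample, so the planned description by expression was not run. A few genes that met the naming rule are not reported here.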

Additional observations from a re-analysis of the deposited data

How the results depend on the processing

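Alternatives changed the merging distance, the libraries needed, the summit value, the list length, the replicates used and the gene assignment. The 7151 regions became 12139 when 2 of 3 libraries sufficed, and 5259 to 8919 otherwise. Genes with 5 or more regions numbered 299 with 2 of 3 libraries, 40 with summit values of at least 10 and 141 to 156 with a replicate left out, against 83. The last 10% of the span held 41.8% and the first 9.02% with 2 of 3 libraries; with a replicate left out the last 10% held 43.1% to 44.1% and the first 7.89% to 8.28%. Genes with a region ranged from 3181 to 5455. Of 41 classes, 30 stayed on the same side of the value over all genes in all 9 settings, and 315 of 369 class counts stayed within 1.5 times. Apolipoproteins ranged from 7.69% to 61.5%, hepatocyte markers from 11.1% to 77.8%. No paired analysis was possible because only 1 group was described and no test was made. The depth of the lists is unknown, so a missing summit cannot be told apart from low coverage.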

Other observations

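Gene families were also formed from the letters that open a symbol, a choice made after the data were seen. Of 148 families with at least 15 members, ZBTB transcription factors led, with 26 of 42 genes holding a region (61.9%), followed by PHF genes with 10 of 19 (52.6%), DHX helicases with 8 of 16 (50.0%), KCTD genes with 10 of 21 (47.6%), KDM histone demethylases with 9 of 19 (47.4%), FBXL genes with 8 of 17 (47.1%), subunits of the Mediator complex (MED) with 14 of 30 (46.7%) and, at 44.4% each, FBXO genes with 16 of 36 and KLF factors with 8 of 18. Over all protein-coding genes the share was 19.8%. In 24 families no gene held a region, among them OR with 392 genes and KRTAP with 94, whose median spans were 2.94 kb and 0.8285 kb.

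Among the autosomes and the X chromosome, the share of protein-coding genes with a region was highest on chromosome 20 (26.4% of 537 genes) and chromosome 16 (25.4% of 854), and lowest on the X chromosome (9.08% of 848) and chromosome 21 (14.2% of 239).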
